A study of Rattus norvegicus with 9 samples.

Results

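The genes described here are 40 genes of fatty acid uptake and oxidation: transporters, acyl-CoA synthetases, triglyceride lipases, the carnitine shuttle, the enzymes of beta-oxidation, their electron carriers, thioesterases and uncoupling proteins. The list was drawn up with earlier results of these data known, and its probe sets were found by gene symbol: a probe set belongs to the group if the platform annotation gives it a single symbol and that symbol is on the list. This gave 55 probe sets in 39 genes, out of 31042 probe sets in 14217 genes on the array. The remaining gene, Acaa1a, is measured only by a probe set that also carries the symbol Acaa1b and was not counted. Where a gene has several probe sets, the one with the highest mean over the 9 arrays stands for it. Acot1 lay below the filter on dim probe sets, so 38 members were tested.

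The study asked which transcripts of rat skeletal muscle a glucocorticoid changes and what testosterone does to those changes. Total RNA of the gastrocnemius, which holds both fast and slow fibres, was measured on Affymetrix rat 230 2.0 arrays, with 1 array per animal and 3 animals per group. All animals were male Wistar rats of 250 g that carried an Alzet osmotic pump for 7 days. The 3 groups received vehicle (propylene glycol), dexamethasone, a synthetic glucocorticoid, at 0.7 mg/kg/day, or dexamethasone at the same dose together with testosterone. The testosterone dose is 28 mg/kg/day in the sample labels and 20 mg/kg/day in the design text of the series, and which is right was not settled. There was no group with testosterone alone, and intact male rats make testosterone of their own. The labels do not say which region of the muscle the piece of tissue came from.

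Long-chain fatty acids reach a muscle fibre as free acids or from lipoprotein triglyceride split by lipoprotein lipase, cross the membrane with the help of Cd36 and fatty acid transport proteins, and are activated to acyl-CoA. The carnitine shuttle carries them into the mitochondrion, a step that malonyl-CoA inhibits, and beta-oxidation then shortens them in repeated rounds of dehydrogenation, hydration, dehydrogenation and cleavage, with the electrons passing through the electron transfer flavoprotein to the respiratory chain. In muscle many of these genes, though not all, are more active in slow, oxidative fibres than in fast, glycolytic ones. Fasting and glucocorticoids are known to raise several genes of the list.

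Values below are log2(intensity + 16) after quantile normalization, called the signal, and differences are differences of mean signals on that log2 scale, with the standard error (SE) of the limma fit. Adjusted p-values are from that fit (Benjamini-Hochberg over all 18625 probe sets tested, threshold 0.05). Vehicle, dexamethasone and combination arrays are listed in the order of replicates 1, 2 and 3, and the numbers were not taken to pair animals. Deposited median signals ran from 25.8 to 132.1 per array, so the arrays were not on a common scale before normalization. The arrays fell into 3 technical sets. Set A, the 4 arrays left without common scaling, held vehicle replicates 1 and 3, dexamethasone replicate 1 and combination replicate 1. Set B held the replicate 2 array of each group, and set C held dexamethasone replicate 3 and combination replicate 3. In set C the control probe sets for the 3' end of Gapdh read 4.94 and 6.22 times those for its 5' end, against 1.06 to 1.17 times on the other arrays. Set C holds no vehicle array. The 9 tested skeletal muscle markers had medians of 0.03 for dexamethasone against vehicle and 0 for the combination against dexamethasone. Their differences ranged from -0.08 to 0.44, the highest being Tcap, and from -0.57, that of Actn2, to 0.14. In bulk tissue, fewer cells of a type and less RNA per cell cannot be told apart.

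Dexamethasone against vehicle. The lipase gene Pnpla2 rose 5.18-fold with dexamethasone and was the single member past the threshold. Most other members of uptake, activation and the carnitine shuttle lay above vehicle without passing it, led by Acsl4, Cd36 and Mlycd. The 10 genes of the mitochondrial beta-oxidation spiral were split evenly, 5 above and 5 below vehicle. Their median relative to the vehicle mean was -0.30, 0.40 and 0.14 on dexamethasone replicates 1, 2 and 3. Without set C, Acadvl and Hadha lay above vehicle, by 0.14 and 0.12, while Acads, Hadh and Acat1 stayed below. Sets A and B also differed from each other. Acadvl, Acadm, Acads, Hadha, Hadhb and Acaa2 lay below vehicle in set A and above it in set B. Acadl and Echs1 lay above vehicle in both sets, and Hadh and Acat1 below it in both. Acsl6, a synthetase, was the member with the largest difference downward. Of the 38 tested members, 1 was called higher and 0 lower, beside 1.05% of all tested probe sets called (0.569% higher, 0.483% lower). Shares of probe sets, here and below, count every tested probe set, whereas members count 1 per gene. Of the 10428 genes tested, counted like the members, 77 were called higher and 59 lower. The median difference over the members was 0.34, with 30 above 0 and 8 below, against a median of 0.04 over all 10428 genes tested. At an unadjusted p under 0.05 there were 10 members higher (background 7.88% of probe sets) and 1 lower (7.57%). The 3 dexamethasone arrays lay wholly above the 3 vehicle arrays for 10 members (12.5% of probe sets) and wholly below for 2, Acsl6 and Acat1 (10.4%).

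The combination against dexamethasone. With testosterone added, 35 of the 38 members lay below their level under dexamethasone alone and none passed the threshold. Cd36, Pnpla2 and Acsl4 had the largest differences, and 9 of the 10 spiral enzymes lay lower as well. Acsl5, Acsl6 and Acat1 were the members above 0. Over all probe sets, 21 were called, which is 0.113% (0.0698% higher, 0.0430% lower). At an unadjusted p under 0.05 there were 11 members lower (5.36% of probe sets) and 2 higher (5.59%). The median over the members was -0.46, against 0 over all genes tested. The combination arrays lay wholly below the dexamethasone arrays for 12 members (7.35% of probe sets) and wholly above for 1, Acsl6 (7.24%). This comparison and the one before it share the 3 dexamethasone arrays, so a high array in that group raises one difference and lowers the other.

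**Figure D1:**
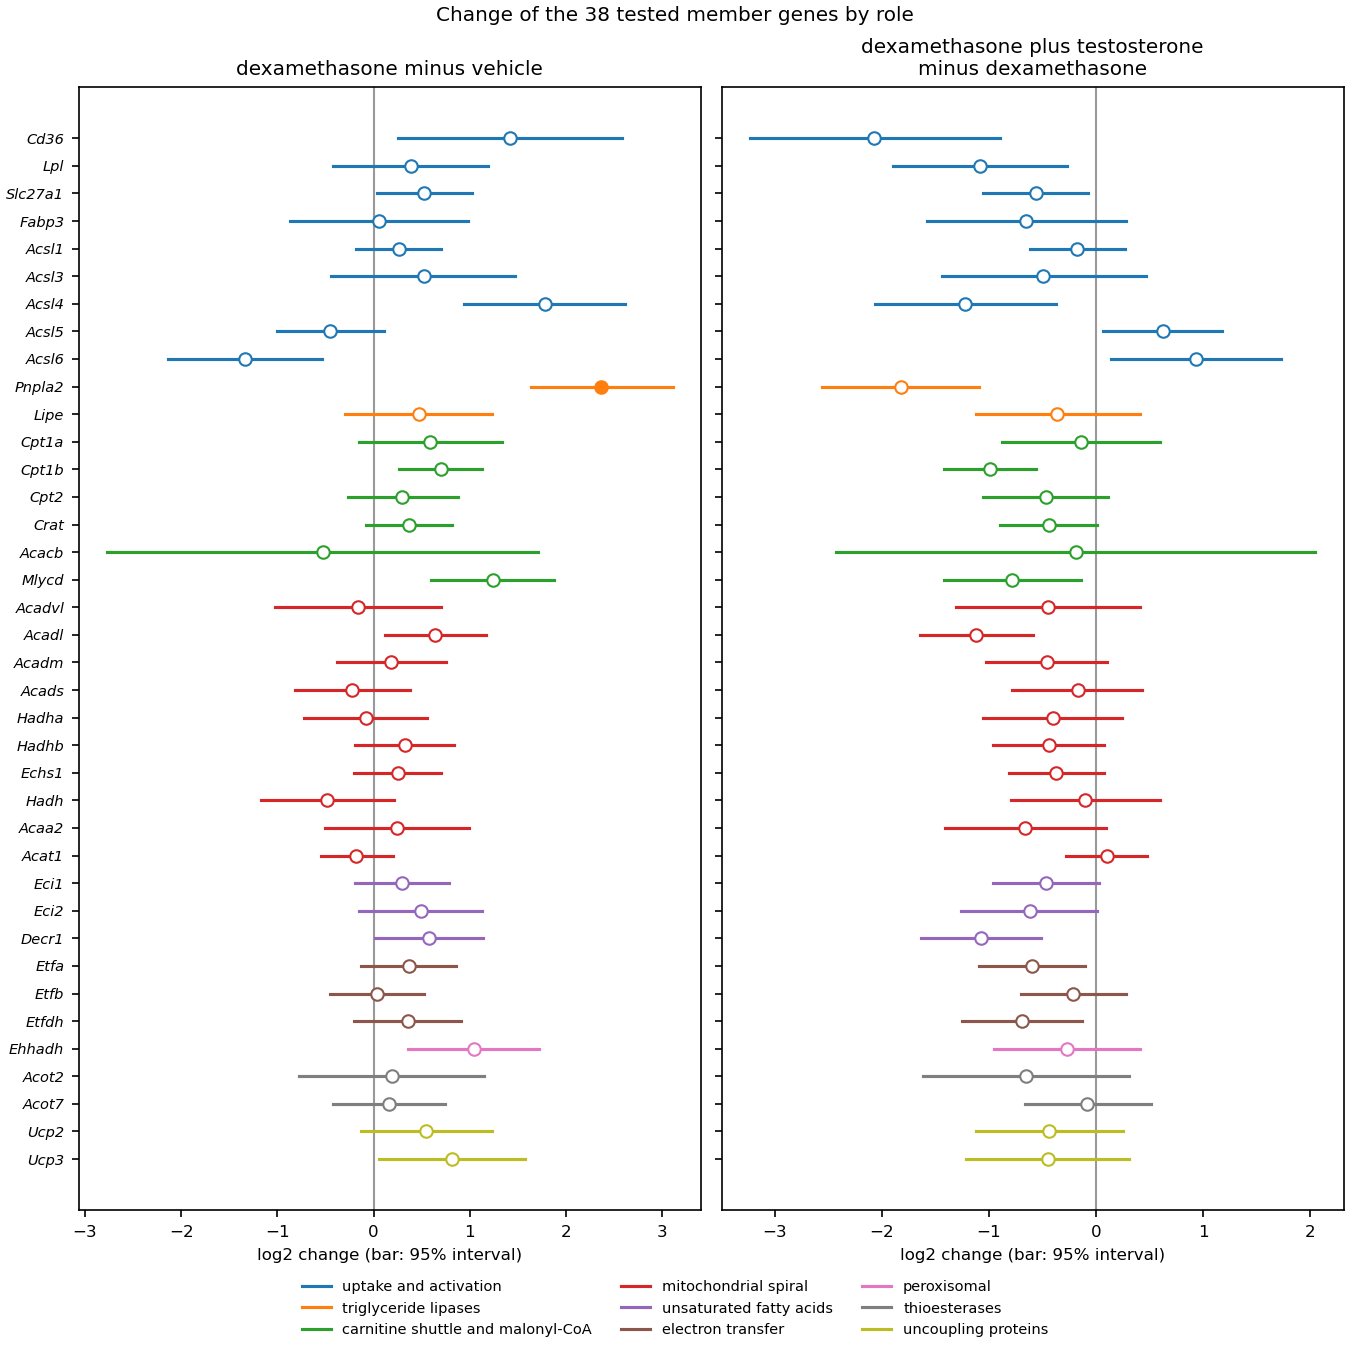
Differences of mean signal (log2 scale, x axis) for each of the 38 tested members, grouped by role in colour, for dexamethasone minus vehicle (left) and the combination minus dexamethasone (right), with 95% intervals as bars. A filled point has an adjusted p under 0.05, which holds for Pnpla2 on the left alone; 30 points lie above 0 on the left and 35 below 0 on the right.

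Promoters are shown for the called gene, for the acyl-CoA synthetases that differed in opposite directions, and for the gene of the trifunctional protein that shares its upstream region with its partner. The sequences are the 250 bases before the RefSeq start in GRCr8, 5' to 3' on the gene's strand, with GC boxes (GGGCGG or its reverse complement CCGCCC) in capitals. Pnpla2 lies at chr1:205982029-205982278 on the plus strand, Acsl4 at chrX:110803262-110803511 on the minus strand, Acsl6 at chr10:38951911-38952160 on the plus strand and Hadha at chr6:31907551-31907800 on the plus strand. All 4 were chosen for display with their values known.
Pnpla2: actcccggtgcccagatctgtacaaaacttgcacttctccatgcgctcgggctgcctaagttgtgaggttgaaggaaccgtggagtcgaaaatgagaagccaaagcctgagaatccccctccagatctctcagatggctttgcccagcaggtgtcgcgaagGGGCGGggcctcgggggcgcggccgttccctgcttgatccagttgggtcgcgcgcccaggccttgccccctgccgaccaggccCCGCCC
Acsl4: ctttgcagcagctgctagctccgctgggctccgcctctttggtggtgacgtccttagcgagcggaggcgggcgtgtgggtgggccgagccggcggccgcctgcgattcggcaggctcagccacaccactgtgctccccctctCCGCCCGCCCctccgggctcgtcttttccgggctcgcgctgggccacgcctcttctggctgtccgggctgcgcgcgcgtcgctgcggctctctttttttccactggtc
Acsl6: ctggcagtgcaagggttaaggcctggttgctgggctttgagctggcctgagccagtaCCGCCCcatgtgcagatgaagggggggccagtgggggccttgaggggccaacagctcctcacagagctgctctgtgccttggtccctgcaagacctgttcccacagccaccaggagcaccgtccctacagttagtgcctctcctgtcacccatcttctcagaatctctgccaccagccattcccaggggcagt
Hadha: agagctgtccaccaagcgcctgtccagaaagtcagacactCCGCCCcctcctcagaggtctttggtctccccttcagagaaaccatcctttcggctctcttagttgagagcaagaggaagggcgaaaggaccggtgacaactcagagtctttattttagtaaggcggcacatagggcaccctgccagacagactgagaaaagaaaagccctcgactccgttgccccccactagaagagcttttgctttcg

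All 4 of these windows hold a GC box, 2 in Pnpla2, 2 overlapping in Acsl4 and 1 each in Acsl6 and Hadha, so the box is on display both in genes that lay higher and in a gene that lay lower with dexamethasone. Of the 40 listed genes, 34 matched the RefSeq table, with 35 promoters. The GC box GGGCGG was in 20 of these 35, against 30.5% of all 33469 promoters of that length, and CCAAT in 13, against 34.0%, both strands being read. The FOXO site GTAAACA was in none of the member promoters (3.21% of all). The PPAR-type repeat, AGGTCA followed after 1 base of any kind by AGGTCA again, was in none (0.0508% of all). The glucocorticoid response element, GNACA followed after 3 bases of any kind by TGTNC, was in none (0.373% of all). The single site AAGGTCA was in 1, that of Acacb (3.99% of all). Motif matches describe letters in these windows and say nothing of what binds there. Hadha and Hadhb, which encode the subunits of one enzyme complex, start head to head on chromosome 6 with 300 bases between their starts, so that the Hadha sequence shown lies within the stretch between both genes.

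Uptake and activation, 9 members. Cd36 is the membrane receptor that helps long-chain fatty acids into the fibre. Its signal was 9.93, 10.86 and 10.03 in the vehicle arrays, 11.73, 12.54 and 10.81 in the dexamethasone arrays and 9.78, 10.37 and 8.74 in the combination arrays. The lowest dexamethasone array lay just below the highest vehicle array, while all 3 combination arrays lay below every dexamethasone array. The difference was 1.42 ± 0.52 (SE) for dexamethasone against vehicle (adjusted p = 0.228) and -2.07 ± 0.52 for the combination against dexamethasone (adjusted p = 0.165, 95% interval -3.23 to -0.90). Each technical set had Cd36 lower with the combination than with dexamethasone, by -1.95 in set A, -2.17 in set B and -2.08 in set C. With the array set as a block in the fit, both Cd36 differences passed, at 1.73 (adjusted p = 0.0215) and -2.07 (adjusted p = 0.0391).

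Lpl encodes lipoprotein lipase, which frees fatty acids from circulating triglyceride at the capillary wall. The signal of Lpl was 12.76, 12.29 and 12.21 with vehicle, 12.82, 12.91 and 12.69 with dexamethasone and 10.93, 12.51 and 11.75 with the combination. Dexamethasone arrays overlapped vehicle and lay above all combination arrays, of which replicate 1 was the lowest. The difference between the combination and dexamethasone was -1.08 ± 0.36 (adjusted p = 0.307), and -0.67 without combination replicate 1. Slc27a1, the fatty acid transport protein Fatp1, read 8.03, 7.59 and 7.62, then 8.16, 8.31 and 8.38, then 7.45, 8.04 and 7.67 in the same order of groups. Its dexamethasone arrays stood above the arrays of both other groups, with differences of 0.53 ± 0.22 (adjusted p = 0.279) and -0.56 ± 0.22 (adjusted p = 0.39). Fabp3, the fatty acid binding protein of heart and muscle cytosol, read 13.60, 13.51 and 13.14 with vehicle, 12.80, 14.00 and 13.62 with dexamethasone and 11.98, 13.44 and 13.05 with the combination. Its groups overlapped throughout, and its differences were 0.06 ± 0.41 and -0.65 ± 0.41.

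The long-chain acyl-CoA synthetases, which trap fatty acids as acyl-CoA, differed from one another in direction. Acsl4, the member that prefers arachidonic acid, had a signal of 9.24, 8.90 and 9.31 with vehicle, 11.71, 10.30 and 10.80 with dexamethasone and 9.38, 9.48 and 10.29 with the combination. Every dexamethasone array was above every other array of this gene, by the least margin over combination replicate 3. The differences were 1.78 ± 0.37 (3.44-fold, adjusted p = 0.0624) and -1.22 ± 0.37 (adjusted p = 0.266). The Acsl4 difference from vehicle passed the threshold under 5 of the other settings, among them the stricter filter on dim probe sets (adjusted p = 0.0345).

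Acsl6, known for its preference for docosahexaenoic acid, ran the other way. The signal of Acsl6 was 11.23, 11.50 and 11.19 with vehicle, 9.03, 10.51 and 10.37 with dexamethasone and 10.87, 10.81 and 11.02 with the combination. The dexamethasone arrays lay below all others, replicate 1 farthest, and the combination arrays lay between dexamethasone and vehicle without overlap on either side. Its differences were -1.34 ± 0.35 (adjusted p = 0.111), 0.93 ± 0.35 (adjusted p = 0.38) and, for the combination against vehicle, -0.40 ± 0.35 (adjusted p = 0.9). A test of the difference between the responses of Acsl4 and Acsl6 was not run.

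Acsl5, a dimmer member, was also lowest on average with dexamethasone, but its combination mean lay above vehicle. The Acsl5 signal was 7.70, 7.71 and 7.65 with vehicle, 6.95, 6.97 and 7.79 with dexamethasone and 8.03, 7.70 and 7.88 with the combination. The dexamethasone array of set C stood with the other groups rather than with its own, and the differences were -0.45 ± 0.25 (adjusted p = 0.429) and 0.63 ± 0.25 (adjusted p = 0.394). A second, dimmer Acsl5 probe set had differences of -0.25 ± 0.25 and 0.06 ± 0.25. Its combination mean of 6.72 lay below its vehicle mean of 6.91. Acsl1, the main synthetase of muscle and fat, read 12.81, 12.60 and 12.63, then 12.79, 13.13 and 12.88, then 12.50, 12.79 and 12.99, with overlapping groups and differences of 0.26 ± 0.20 and -0.18 ± 0.20. A second Acsl1 probe set had the opposite sign with dexamethasone (-0.51 ± 0.59), and read 9.97 and 9.42 on the set C arrays against 10.72 to 12.11 on the other arrays. Acsl3, the remaining synthetase, had differences of 0.52 ± 0.42 and -0.49 ± 0.42.

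Triglyceride lipases, 2 members. Pnpla2 encodes adipose triglyceride lipase, which takes the first fatty acid off stored triglyceride in muscle and fat. Its signal was 10.84, 10.19 and 10.09 in the vehicle arrays, 12.86, 13.04 and 12.34 in the dexamethasone arrays and 10.38, 10.97 and 11.42 in the combination arrays. The dexamethasone arrays stood apart from all the others, whereas vehicle and combination arrays overlapped. Dexamethasone raised it by 2.37 ± 0.33 (5.18-fold, adjusted p = 0.0213, 95% interval 1.64 to 3.11), with 2.40 within set A and 2.85 within set B. The combination lay 1.82 lower than dexamethasone (-1.82 ± 0.33, 3.54-fold, 95% interval -2.56 to -1.09), a difference that did not pass (adjusted p = 0.0852).

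The call on Pnpla2 was lost when any 1 vehicle array or dexamethasone replicate 1 or 2 was left out. Its adjusted p was then 0.0669, 0.0954 and 0.123 without vehicle replicates 1, 2 and 3, and 0.0859 and 0.0602 without dexamethasone replicates 1 and 2, with differences of 2.22 to 2.61. Within the technical sets, the Pnpla2 difference between the combination and dexamethasone was -2.49 in set A, -2.06 in set B and -0.92 in set C, so the set C arrays differed least. Without set C it was -2.27 (adjusted p = 0.0542).

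Lipe encodes hormone-sensitive lipase, which splits the diglyceride that Pnpla2 leaves. The Lipe signal was 8.24, 9.18 and 7.97 with vehicle, 8.86, 8.93 and 8.99 with dexamethasone and 8.17, 9.09 and 8.45 with the combination. Vehicle and combination each had a replicate 2 array above every dexamethasone array, and the differences were 0.47 ± 0.34 and -0.36 ± 0.34. A dimmer Lipe probe set read 6.32, 4.74 and 4.73, then 6.87, 7.77 and 6.78, then 6.79, 5.34 and 6.10, with differences of 1.88 ± 0.51 (adjusted p = 0.12) and -1.07 ± 0.51 (adjusted p = 0.503). Both lipases are also fat cell genes, and the fat marker Adipoq, near the lower end of the signals, ranged from 5.78 to 7.35 with a difference of -0.01 ± 0.39 for dexamethasone against vehicle. The 7 tested adipocyte markers, of which Lipe is one, had a median of 0.01 for dexamethasone against vehicle (4 above 0, 3 below). For the combination against dexamethasone their median was -0.36 (1 above 0, 6 below). Their summed signals were 2507 to 3596 in vehicle, 2869 to 3534 in dexamethasone and 1802 to 2633 in combination arrays. Fabp4 weighed most in these sums, with a mean signal of 10.74 over the arrays against 8.65 for Lipe, the next brightest. Cidea, a lipid droplet protein on that list, read 7.20, 6.70 and 6.64 with vehicle, 10.32, 8.21 and 8.02 with dexamethasone and 5.51, 7.28 and 6.93 with the combination. Its dexamethasone arrays lay above all the others, with a difference of 2.00 ± 0.63 (adjusted p = 0.168), and the part of fat cells in the lipase values was not tested.

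**Figure D2:**
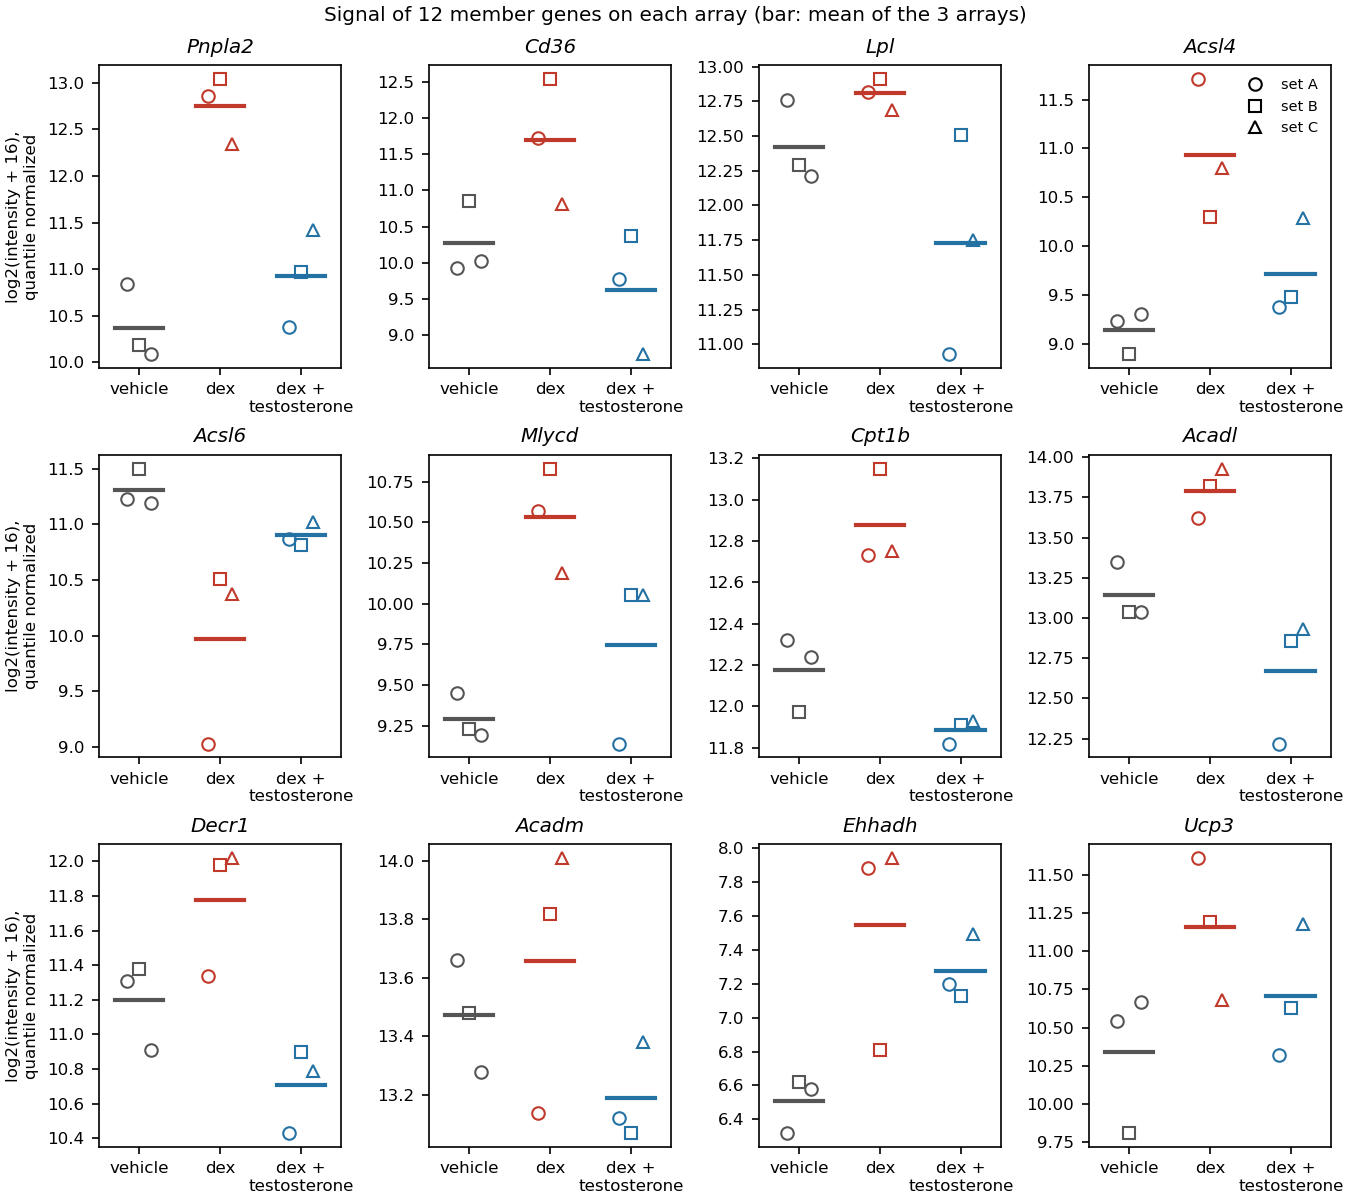
Signal (log2(intensity + 16), quantile normalized, y axis) of 12 members on each of the 9 arrays by group (x axis), with the marker shape giving the technical set and the bar the mean of 3 arrays. Pnpla2, Acsl4, Mlycd, Cpt1b and Acadl are highest in all 3 dexamethasone arrays, and Acsl6 is lowest there.

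Carnitine shuttle and malonyl-CoA, 6 members. Carnitine palmitoyltransferase 1 is the entry step of long-chain acyl groups into mitochondria, and Cpt1b is its muscle form. The signal of Cpt1b was 12.32, 11.97 and 12.24 with vehicle, 12.73, 13.15 and 12.75 with dexamethasone and 11.82, 11.91 and 11.93 with the combination. None of the 3 groups overlapped another, with the combination lowest and dexamethasone highest. The differences were 0.70 ± 0.19 (1.63-fold, adjusted p = 0.12), -0.99 ± 0.19 (1.99-fold, adjusted p = 0.0959, 95% interval -1.42 to -0.56) and, for the combination against vehicle, -0.29 ± 0.19 (adjusted p = 0.863). Cpt1b had a residual SD between arrays of 0.18, among the smallest of the members.

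Mlycd, malonyl-CoA decarboxylase, removes the inhibitor of that step. The Mlycd signal was 9.45, 9.23 and 9.19 with vehicle, 10.57, 10.83 and 10.19 with dexamethasone and 9.14, 10.05 and 10.05 with the combination. Dexamethasone arrays lay above both other groups, though 2 combination arrays came within reach of the lowest of them. Its differences were 1.24 ± 0.28 (2.36-fold, adjusted p = 0.0812) and -0.78 ± 0.28 (adjusted p = 0.357). Acacb, acetyl-CoA carboxylase beta, makes the malonyl-CoA. It read 7.48, 7.19 and 7.28 with vehicle, 7.54, 8.30 and 4.53 with dexamethasone and 7.58, 7.52 and 4.70 with the combination. The low arrays were those of set C in both groups, which gave its differences of -0.53 and -0.19 an SE of 1.00.

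Cpt1a, the liver form of the entry enzyme, was dimmer and read 7.42, 6.50 and 7.78, then 7.77, 7.60 and 8.12, then 7.56, 7.47 and 8.03, with overlapping groups and differences of 0.59 ± 0.33 and -0.14 ± 0.33. Cpt2, which turns acylcarnitine back into acyl-CoA inside the mitochondrion, read 10.57, 10.54 and 9.97 with vehicle, 10.27, 11.06 and 10.66 with dexamethasone and 10.03, 10.31 and 10.25 with the combination. Its dexamethasone arrays overlapped both other groups, and its differences were 0.30 ± 0.26 and -0.47 ± 0.26. Crat, which exchanges acetyl groups with carnitine, read 12.19, 12.07 and 11.78, then 12.24, 12.58 and 12.34, then 12.11, 12.01 and 11.71. All 3 dexamethasone arrays of Crat lay above the other 6, by small margins, with differences of 0.37 ± 0.20 (adjusted p = 0.423) and -0.44 ± 0.20 (adjusted p = 0.468).

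Mitochondrial beta-oxidation spiral, 10 members. The median difference of the spiral genes was 0.05 for dexamethasone against vehicle, -0.42 for the combination against dexamethasone and -0.41 for the combination against vehicle, where all 10 lay below 0. None passed the threshold in any comparison. Acadl, the long-chain acyl-CoA dehydrogenase, was the member of the spiral with the largest differences. Its signal was 13.35, 13.04 and 13.04 with vehicle, 13.62, 13.82 and 13.93 with dexamethasone and 12.22, 12.86 and 12.93 with the combination. The 3 groups were fully separate, in the same order as for Cpt1b, with combination replicate 1 the lowest array. The differences were 0.64 ± 0.23 (adjusted p = 0.225) and -1.12 ± 0.23 (2.17-fold, adjusted p = 0.106), and the second was -0.88 without combination replicate 1.

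Acadm, the medium-chain dehydrogenase, read 13.66, 13.48 and 13.28 with vehicle, 13.14, 13.82 and 14.01 with dexamethasone and 13.12, 13.07 and 13.38 with the combination. Acadvl, the very-long-chain enzyme of the inner membrane, read 11.71, 11.44 and 11.28, then 11.09, 12.13 and 10.74, then 10.81, 11.42 and 10.37. Acads, the short-chain enzyme, read 9.77, 9.71 and 9.29, then 8.93, 9.92 and 9.27, then 9.09, 9.32 and 9.18. For all 3 of these dehydrogenases the dexamethasone arrays overlapped both other groups and replicate 1 lay below replicate 2. Their differences from vehicle under dexamethasone were 0.18 ± 0.25, -0.16 ± 0.38 and -0.22 ± 0.27, and those of the combination from dexamethasone were -0.46 ± 0.25, -0.45 ± 0.38 and -0.17 ± 0.27.

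Hadha and Hadhb are the subunits of the trifunctional protein, which carries out the last 3 steps on long chains. Hadha read 12.02, 11.82 and 11.61 with vehicle, 11.55, 12.32 and 11.33 with dexamethasone and 11.38, 11.61 and 11.00 with the combination. Hadhb read 13.24, 13.14 and 13.04, then 13.03, 13.60 and 13.77, then 12.88, 12.92 and 13.28. The pair shares its upstream region, printed above, and its set A and set B arrays kept one order within each group, but on both set C arrays Hadha was the lowest of its group and Hadhb the highest. Differences were -0.08 ± 0.29 and 0.33 ± 0.23 for dexamethasone against vehicle and -0.40 ± 0.29 and -0.44 ± 0.23 for the combination against dexamethasone. A dimmer Hadha probe set had the opposite sign with dexamethasone, at 0.18 ± 0.30.

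Hadh, the hydroxyacyl-CoA dehydrogenase of shorter chains, read 12.19, 12.20 and 11.65 with vehicle, 11.01, 12.13 and 11.46 with dexamethasone and 11.44, 11.71 and 11.15 with the combination. It had the largest difference downward of the spiral with dexamethasone, -0.48 ± 0.31, and overlapping groups. Acat1, a thiolase that also serves ketone body use, read 12.49, 12.35 and 12.42, then 12.15, 12.28 and 12.30, then 12.45, 12.40 and 12.18. Its dexamethasone arrays lay below all vehicle arrays by a small margin, with differences of -0.18 ± 0.17 and 0.10 ± 0.17, and its second probe set had the opposite signs (0.03 ± 0.24 and -0.21 ± 0.24). Echs1 and Acaa2, the hydratase and thiolase of the spiral, had differences of 0.25 ± 0.20 and 0.24 ± 0.33 with dexamethasone and of -0.37 ± 0.20 and -0.66 ± 0.33 with testosterone added.

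Genes of the citric acid cycle and respiratory chain, a list of mitochondrial content held beside the members, had medians of -0.10 for dexamethasone against vehicle and -0.05 for the combination against dexamethasone, with 0 of 17 called in either. The lowest of their array medians was -0.43, on dexamethasone replicate 1, which was also the lowest dexamethasone array for 25 of the 38 members (31.8% of all genes). Dexamethasone replicate 2 was the highest for 23 (25% of all genes). The residual SD between arrays had a median of 0.36 over the members, against 0.3 over all genes tested.

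**Figure D3:**
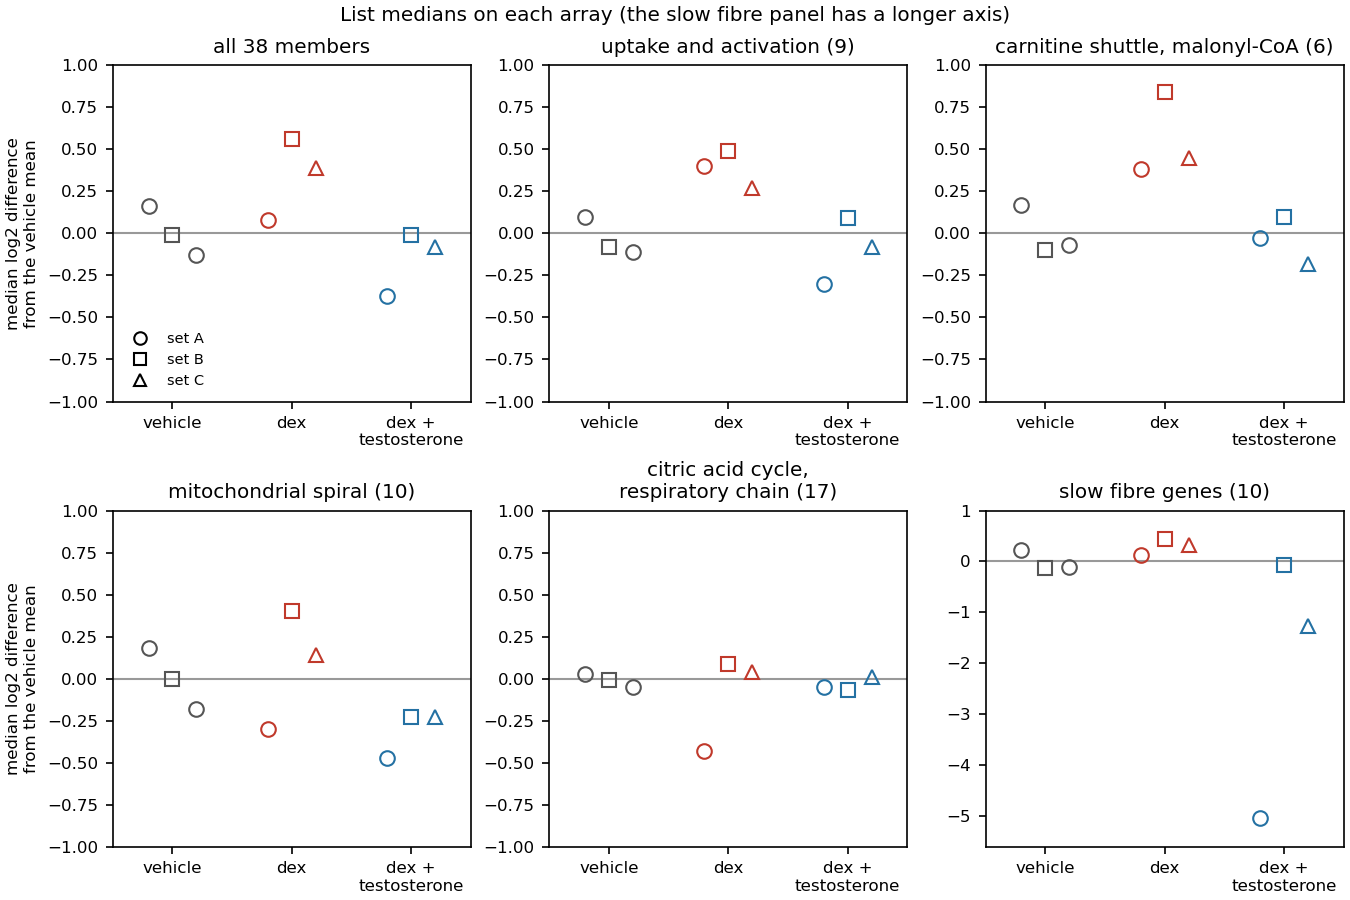
Median over each list of the log2 difference from the vehicle mean (y axis), for each of the 9 arrays by group (x axis), with marker shapes for the technical sets. The members read 0.08, 0.56 and 0.39 in the dexamethasone arrays and -0.37, -0.01 and -0.08 in the combination arrays, and slow fibre genes read -5.03 in combination replicate 1 on a longer axis.

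Unsaturated fatty acids and electron transfer, 6 members. Decr1, the dienoyl-CoA reductase needed for polyunsaturated chains, had a signal of 11.31, 11.38 and 10.91 with vehicle, 11.34, 11.98 and 12.02 with dexamethasone and 10.43, 10.90 and 10.79 with the combination. Dexamethasone overlapped vehicle by a single array, and the combination arrays lay below both other groups. The differences were 0.58 ± 0.25 (adjusted p = 0.307) and -1.07 ± 0.25 (2.10-fold, adjusted p = 0.141), with -0.91, -1.08 and -1.22 in sets A, B and C. The enoyl-CoA isomerases Eci1 and Eci2 had differences of 0.30 ± 0.22 and 0.49 ± 0.28 with dexamethasone, and of -0.47 ± 0.22 and -0.62 ± 0.28 with testosterone added. A dimmer Eci1 probe set had the opposite sign with dexamethasone (-0.99 ± 0.60) and was lowest on the set C arrays. Etfa and Etfb, the subunits of the electron transfer flavoprotein, and Etfdh, which hands its electrons to ubiquinone, lay 0.37 ± 0.22, 0.04 ± 0.22 and 0.36 ± 0.25 above vehicle with dexamethasone. Their values for the combination against dexamethasone were -0.60 ± 0.22, -0.21 ± 0.22 and -0.69 ± 0.25, and for Etfa and Etfdh the arrays of these groups did not overlap.

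Peroxisomal enzyme, thioesterases and uncoupling proteins, 5 tested members. Ehhadh, the bifunctional enzyme of peroxisomal beta-oxidation, had a signal of 6.32, 6.62 and 6.58 with vehicle, 7.88, 6.81 and 7.94 with dexamethasone and 7.20, 7.13 and 7.49 with the combination. All 6 treated arrays lay above all vehicle arrays, and the treated groups overlapped each other. Its differences were 1.04 ± 0.30 (2.05-fold, adjusted p = 0.142), -0.27 ± 0.30 (adjusted p = 0.827) and, for the combination against vehicle, 0.77 ± 0.30 (adjusted p = 0.815). Ucp3, the muscle uncoupling protein, which fatty acids are known to raise, read 10.54, 9.81 and 10.67 with vehicle, 11.61, 11.19 and 10.68 with dexamethasone and 10.32, 10.63 and 11.18 with the combination. The dexamethasone array nearest to vehicle was that of set C, and the differences were 0.82 ± 0.34 (adjusted p = 0.286) and -0.45 ± 0.34 (adjusted p = 0.697). In sets A and B the combination lay below dexamethasone for Ucp3, by -1.29 and -0.57, and in set C above it, by 0.51. Ucp2 read 7.74, 7.52 and 7.75, then 7.98, 8.81 and 7.88, then 7.46, 8.30 and 7.61, with all dexamethasone arrays above vehicle and differences of 0.55 ± 0.30 and -0.44 ± 0.30. Acot2 and Acot7, thioesterases that release free fatty acids from acyl-CoA, had differences of 0.19 ± 0.43 and 0.16 ± 0.26 with dexamethasone and of -0.65 ± 0.43 and -0.08 ± 0.26 with testosterone added. Acot1 ranged from 4.27 to 5.47 over the arrays and was too dim to test.

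Within the technical sets, 20 members were higher with dexamethasone than vehicle in both sets that hold vehicle arrays (32.2% of probe sets) and 4 were lower (30.8%). The median over the members was 0.09 in set A and 0.54 in set B, so it was larger in set B. For the combination against dexamethasone, 26 members were lower in all 3 sets (17.7% of probe sets) and 2, Acsl5 and Acsl6, were higher (18.5%). The second Acsl5 probe set was higher in set A alone, at 0.71, -0.51 and -0.02 in sets A, B and C. Without set C, the arrays did not overlap for 13 members higher with dexamethasone (17.1% of probe sets) and for 18 members lower with the combination than with dexamethasone (19.8%). Scaling the arrays by their medians alone, in place of quantile normalization, gave a member median of 0.75 for dexamethasone against vehicle, with the median of all genes at 0.28.

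**Figure D4:**
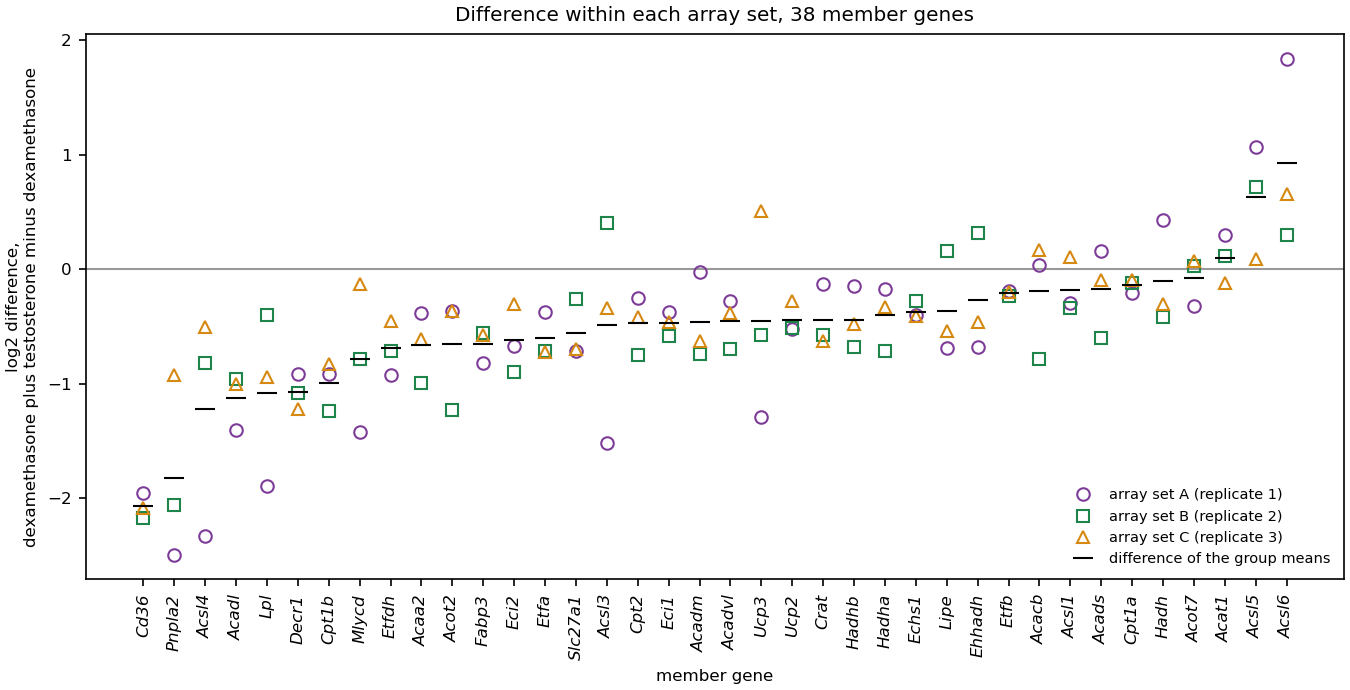
Difference between the combination and the dexamethasone array within each technical set (log2 scale, y axis, 1 pair of arrays per set) for the 38 members (x axis), with the difference of group means as a dash. For 26 members all 3 sets lie below 0, and for Acsl5 and Acsl6 all 3 lie above it.

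Slow fibre transcripts were low on 2 of the 3 combination arrays, though 0 of the 10 genes on that list passed the threshold for the combination against dexamethasone. Combination replicate 1 had slow fibre genes at -5.03 relative to the vehicle mean (median of 10 genes) and replicate 3 at -1.27, while replicate 2 was at -0.07. Myh7, the slow myosin heavy chain, had a signal of 8.74 on combination replicate 1 and of 14.14 to 14.96 on the others. The summed signal of the list was 4823 to 114993 in combination arrays, 112272 to 139524 in vehicle and 137942 to 163042 in dexamethasone arrays. All 10 slow fibre genes lay below 0 for the combination against dexamethasone, with a median of -2.40, and -0.87 without combination replicate 1. That array was also the lowest of its group for 26 of the 38 members (42% of all genes). Without it, the members' median was -0.39, with 34 of 38 below 0, and 12 members still had arrays wholly below dexamethasone (11% of probe sets). In sets B and C alone, 28 members were lower with the combination (29.3% of probe sets). The fast fibre list had a median of 0.07 over 11 genes for the combination against dexamethasone, with 9 above 0 and 2 below. Its genes were not alike. Myh2, a myosin heavy chain gene, was the lowest at -0.77 ± 0.40, and Pvalb the highest at 1.04 ± 0.21 (adjusted p = 0.104). The Myh2 signal was 12.71 on combination replicate 1 and 14.22 to 14.78 on the others. The part of fibre content in the members' differences was not tested.

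Endothelial markers had a median of -0.47 for dexamethasone against vehicle and of 0.03 for the combination against dexamethasone, with summed signals of 3633 to 4137 in vehicle, 2743 to 2993 in dexamethasone and 2802 to 3009 in combination arrays. Macrophage markers had medians of -0.22 and -0.25, with sums that overlapped between groups. Neither list had a called gene, and their part in the members' values was not tested.

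The combination against vehicle. No member and no probe set passed the threshold in this limma comparison, and at an unadjusted p under 0.05 there were 589 probe sets higher (3.16%) and 550 lower (2.95%). Of the members, Ehhadh was at that level and higher, and 0 were lower. The median over the members was -0.17, with 12 above 0 and 26 below, against 0.04 over all genes tested. The arrays did not overlap for 2 members higher than vehicle, Acsl4 and Ehhadh (7.53% of probe sets), and for 4 lower, Acadl, Cpt1b, Acsl6 and Decr1 (5.79%). Within both sets that hold vehicle arrays, 20 members were lower (23.0% of probe sets) and 3 higher (25.3%). The direction of the median depended on the scaling. With arrays scaled by their medians alone it was 0.20 (25 members above 0, 13 below), with the median of all genes at 0.25. Under quantile normalization the SD of the members' median between arrays within groups was 0.2. That SD describes single arrays, not a difference of group means, and it was not computed under median scaling.

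Related genes of fatty acid metabolism. A further list of 64 genes covered peroxisomal oxidation, carnitine transport, lipid droplets, ketone bodies, propionate use and the control of fuel choice, and 58 were tested. It also held genes of fatty acid uptake, further acyl-CoA dehydrogenases and genes of fatty acid synthesis such as Fasn. Pdk4, the kinase that shuts off pyruvate dehydrogenase and so spares glucose, rose with dexamethasone and was the single gene of this list past the threshold. Its signal was 11.63, 11.61 and 11.93 with vehicle, 13.90, 13.85 and 12.91 with dexamethasone and 11.62, 12.38 and 12.55 with the combination. Dexamethasone arrays lay above all the others, and vehicle and combination overlapped by replicate 1 of the combination. The differences were 1.82 ± 0.33 (adjusted p = 0.04) and -1.37 ± 0.33 (adjusted p = 0.153). The list's medians were 0.11 (37 of 58 above 0) and -0.17 (38 of 58 below 0), nearer to the medians of all genes than those of the members.

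Among the genes of that list that did not pass for dexamethasone against vehicle, the lowest p-values upward belonged to the acyl-CoA dehydrogenase Acad11 (1.69 ± 0.33, adjusted p = 0.0546), to Crot, the peroxisomal carnitine octanoyltransferase (1.45 ± 0.32, adjusted p = 0.0727), and to Mcee, the epimerase of propionate use (0.76 ± 0.20, adjusted p = 0.107). Downward they belonged to the lipid droplet coat gene Plin2 (-0.77 ± 0.18, adjusted p = 0.0887), the binding protein gene Fabp5 (-0.83 ± 0.26, adjusted p = 0.17) and the transporter gene Slc27a4 (-1.76 ± 0.67, adjusted p = 0.25). For the combination against dexamethasone, the lowest p-values downward were those of Acad9 (-0.98 ± 0.21, adjusted p = 0.114), Acad11 (-1.48 ± 0.33, adjusted p = 0.132) and Pdk4. Upward they were those of Prkag3, an AMP-activated kinase subunit of fast muscle (1.40 ± 0.42, adjusted p = 0.255), Slc27a4 (1.34 ± 0.67, adjusted p = 0.524) and the lipoprotein receptor gene Vldlr (0.42 ± 0.21, adjusted p = 0.529). No gene of this list passed the threshold for the combination against dexamethasone.

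Agreement between probe sets. For 11 members a further 12 probe sets were tested. Their sign was that of the representative for 8 of 12 with dexamethasone, the exceptions being in Acsl1, Hadha, Acat1 and Eci1, and for 11 of 12 with testosterone added, the exception being in Acat1. The second Ucp3 probe set read 9.16 and 8.69 on the set C arrays and 9.70 to 11.14 on the others, so that its low arrays were those of the technical set, as for Acacb, Acsl1 and Eci1.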

How the data were processed

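The deposited values are linear intensities, 1 signal per probe set and array, made by the authors from Affymetrix scans; the sources used here name neither the signal algorithm nor a scaling step. As deposited, 5 arrays had a mean signal (without the lowest and highest 2%) near 500 and 4 arrays had 113.3 to 206.8. The 57 control probe sets were left out. Intensities plus a pseudocount of 16 were taken to log2, where changes of dim probe sets are understated, and brought to common quantiles (limma 3.58.1, R 4.3.3). A filter removed every probe set whose mean was under the 40th percentile. The remaining 18625 were fitted with limma (lmFit and eBayes), 1 mean per group over all 9 arrays, and p-values were adjusted by Benjamini-Hochberg within each comparison. The spread within a group holds differences between animals and between technical sets, and 3 arrays a group limit the precision. P-values are from this fit unless the sentence names another setting or arrays left out, for which limma was refitted. The fitting script was tested on simulated data.

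Symbols came from the platform annotation, updated by gene ID to GRCr8: 20826 probe sets had 1 symbol, 436 several and 9780 none. Promoters are those of RefSeq. The members and all gene lists were chosen with earlier results of these data known, and the technical sets were defined from deposited scaling and the Gapdh controls after values had been seen. Array values are printed for members past the threshold, for the 5 lowest unadjusted p-values in each direction and comparison, and for 20 members fixed by role.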

Additional observations from a re-analysis of the deposited data

How the results depend on the processing

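For dexamethasone against vehicle, the 196 called probe sets became 130 with arrays scaled by their medians (107 higher, 23 lower), 54 and 414 with pseudocounts of 1 and 64, 48 without a filter, 469 with a filter at the 60th percentile, 123 with only the 2 groups compared, 510 with an intensity trend and robust variance, 616 with array weights and 460 without set C. They ranged from 1 to 340 with 1 array left out. The 1 called member became 3 with a pseudocount of 64 or the stricter filter, 4 with trend and robust variance, 5 with array weights, 2 with the array set as a block and 0 to 2 with 1 array left out. The members' median of 0.34 was 0.75 with median scaling, 0.09 within set A and 0.54 within set B.

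For the combination against dexamethasone, the 21 called probe sets became 6 with median scaling, 5 and 102 with pseudocounts of 1 and 64, 0 without a filter, 83 with the stricter filter, 0 with only the 2 groups compared, 149 with trend and robust variance, 47 with array weights, 39 without set C and 0 to 67 with 1 array left out. Called members were 2 with a pseudocount of 64 or the stricter filter, 3 with trend and robust variance and 1 with the array set as a block. For the combination against vehicle, array weights gave 5 called probe sets, and the members' median was 0.20 with median scaling. The cause of these changes was not tested, apart from the number of arrays or probe sets that a setting itself alters.

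With the replicate number as a block, 13 probe sets and 0 members were called for dexamethasone against vehicle and 0 probe sets for the combination against dexamethasone. Deviations of same-numbered arrays correlated at -0.20 to 0.59, and those of differently numbered arrays of different groups at -0.54 to 0.35. The highest values, 0.59 and 0.37, joined arrays of set C and of set B. For these pairs number and technical set could not be told apart. The numbers were not taken to pair the animals. No called member value changed sign under the settings tried, and 37 of 84 differences of the 28 members named with array values did so in some setting. Acot1 was too dim to test.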

Other observations

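Probe sets that carry a member symbol together with another symbol were kept out of every count above. The one annotated to Cd36 and Cd36l1 was brighter than the Cd36 probe set. Its signal was 12.04, 11.92 and 11.62 in the vehicle arrays, 13.05, 13.53 and 13.03 in the dexamethasone arrays and 10.99, 11.90 and 11.28 in the combination arrays. Dexamethasone arrays lay above all the others, and vehicle and combination overlapped. The differences were 1.35 ± 0.27 (limma adjusted p = 0.0555) and -1.81 ± 0.27 (limma adjusted p = 0.0617), with -2.06, -1.63 and -1.75 in sets A, B and C. The probe set of Acaa1a and Acaa1b, peroxisomal thiolases, had differences of 0.12 ± 0.31 and -0.09 ± 0.31, and that of Eci2 and Eci3 had 0.19 ± 0.23 and -0.30 ± 0.23. The probe set of Acot1 and Acot2 was too dim to test.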
